A study of Mus musculus with 26 samples.

Results

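In all, 10 genes of bile acid handling and bile formation were followed here through liver RNA of Eµ-MYC mice. They are Nr1h4, the uptake transporter genes Slc10a1, Slco1b2 and Slco1a4, the export genes Abcb11, Abcb4, Abcc2, Abcg5 and Abcg8, and the canalicular flippase gene Atp8b1. They were chosen by gene name, as 10 of the 36883 names in the deposited count table, and all 10 were found and passed the filter on low counts.

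Hepatocytes take bile acids up from the blood through transporters of the sinusoidal membrane and pump them into the canaliculus, the narrow channel between neighbouring hepatocytes where bile forms. Separate canalicular transporters export phospholipid, sterols and conjugated anions. The bile acid receptor FXR, encoded by Nr1h4, is a nuclear receptor that is known to raise Abcb11 and to lower bile acid synthesis when bile acids accumulate in the liver.

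The RNA came from 12 mice kept for 8 weeks under chronic jet lag lighting (8 females, 4 males) and from 14 mice kept under normal lighting with 12 h of light and 12 h of dark (8 females, 6 males). Every mouse, controls included, carried the Eµ-MYC transgene, in which the immunoglobulin heavy chain enhancer drives MYC in B-lineage cells and which is known to give B-cell lymphoma. No source used here gives the jet lag schedule, the age or health of the mice, or the time of day of sampling. Each library is labelled as a separately numbered mouse, so p-values measure the spread between mice.

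Library totals ran from 45364557 to 50242019 counts, and 3 counts, which a count of 0 cannot exclude, came to 0.0661 CPM or less (the count over the library total times 1e+06). That limit covers counting error only. All 12 genes of the hepatocyte list were detected, and albumin took at most 22.1% of the counts. Xist and Ddx3y matched the labelled sex in all 26 libraries. In the comparison of jet lag with 12:12 lighting, Per2 fell by 1.38 on the log2 scale (SE 0.28, edgeR adjusted p = 0.0133) and Insig2 rose by 1.21 (SE 0.19, edgeR adjusted p = 0.00201). In 8 libraries the B-cell receptor gene Cd79a lay at 14.5 CPM or more, against 2.95 CPM or less in the other 18. For some genes and comparisons, results are therefore also given without those 8. These are female jet lag mice 2, 5 and 6, female 12:12 mice 6 and 7, male jet lag mouse 8 and male 12:12 mice 3 and 5.

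Promoter sequences were available from RefSeq (GRCm38.p6) for 9 of the 10 genes, as windows from 250 bases before to 50 bases after a transcription start. Those of Abcb11 and Slco1b2 are shown because each holds a near match to the inverted repeat AGGTCANTGACCT, the element to which FXR is known to bind with its partner RXR. Abcb11 is at chr2:69342567-69342866 on the minus strand and Slco1b2 at chr6:141629268-141629567 on the plus strand. Capitals mark 13 bases with at most 1 mismatch to the repeat, beginning 63 bases before the start of Abcb11 and 88 bases before the start of Slco1b2.
Abcb11: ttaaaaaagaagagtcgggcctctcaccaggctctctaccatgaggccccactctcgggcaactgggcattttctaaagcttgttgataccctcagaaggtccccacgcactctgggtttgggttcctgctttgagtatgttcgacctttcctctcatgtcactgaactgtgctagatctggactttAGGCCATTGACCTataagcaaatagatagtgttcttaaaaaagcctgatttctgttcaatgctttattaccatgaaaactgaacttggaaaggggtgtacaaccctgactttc
Slco1b2: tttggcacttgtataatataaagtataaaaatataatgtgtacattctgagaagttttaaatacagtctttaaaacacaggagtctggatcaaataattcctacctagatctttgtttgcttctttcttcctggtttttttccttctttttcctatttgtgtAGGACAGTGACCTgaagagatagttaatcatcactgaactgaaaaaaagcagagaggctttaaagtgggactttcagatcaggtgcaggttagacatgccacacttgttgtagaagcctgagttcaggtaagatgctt
Such a near match, on either strand, occurred in 27 of 32851 promoter windows (0.0822%), and the exact repeat in 3, none of them among the genes studied here. The mismatch was allowed after the windows had been seen. The simpler nuclear receptor motif AGGTCA, which overlaps the repeat, stood in 16.3% of all windows on either strand and in a window of Abcb11, Abcc2, Nr1h4, Slc10a1 and Slco1b2. These matches describe letters only.

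The windows of Abcg5 and Abcg8 are shown because these neighbouring genes are read in opposite directions from starts 110 bases apart. RefSeq gives Abcg8 a second window, not printed here, at chr17:84676052-84676351 on the plus strand, at the annotated start of the gene span and inside the span of Abcg5. The Abcg5 window is chr17:84682962-84683261 on the minus strand and the Abcg8 window shown is chr17:84682871-84683170 on the plus strand, so 209 bases belong to both, printed here as reverse complements.
Abcg5: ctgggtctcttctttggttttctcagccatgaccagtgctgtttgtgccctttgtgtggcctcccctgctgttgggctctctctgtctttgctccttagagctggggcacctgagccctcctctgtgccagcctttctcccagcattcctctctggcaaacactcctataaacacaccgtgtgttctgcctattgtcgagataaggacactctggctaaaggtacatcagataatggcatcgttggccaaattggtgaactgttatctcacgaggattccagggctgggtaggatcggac
Abcg8: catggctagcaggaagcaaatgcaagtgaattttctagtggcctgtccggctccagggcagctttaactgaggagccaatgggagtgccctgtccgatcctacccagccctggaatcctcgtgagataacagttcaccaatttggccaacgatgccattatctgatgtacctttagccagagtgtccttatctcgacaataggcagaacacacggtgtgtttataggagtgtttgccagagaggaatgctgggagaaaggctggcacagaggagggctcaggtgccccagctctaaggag

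Levels of the 10 genes were compared with each other per kilobase of annotated exon, over all 26 libraries. The sodium-dependent bile acid importer gene Slc10a1 (chromosome 12, 80953183 to 80968705) was highest, with 394 ± 83.0 CPM per kilobase (SD). Slco1b2 (chromosome 6, 141629518 to 141686646), which encodes a sodium-independent organic anion importer, followed with 177 ± 50.8. Abcb11 (chromosome 2, 69238282 to 69342616), which encodes the bile salt export pump, had 113 ± 45.4 CPM per kilobase. The ranges of each gene and the next in this order overlapped.

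A middle group was formed by Abcc2 (chromosome 19, 43782192 to 43840740), the exporter of bilirubin glucuronides and other conjugates, with 74.0 ± 23.2 CPM per kilobase, and Nr1h4 (chromosome 10, 89454234 to 89533585) with 66.4 ± 14.1. The sterol exporter genes Abcg5 (chromosome 17, 84658234 to 84683011) and Abcg8 (chromosome 17, 84676302 to 84700333), whose products work as a heterodimer, had 60.5 ± 21.7 and 44.7 ± 16.8 CPM per kilobase. Among these 4 genes, neighbours in the order differed by less than 1 SD. Abcb4 (chromosome 5, 8893717 to 8959231), which encodes the phosphatidylcholine floppase, had 27.8 ± 6.95 CPM per kilobase and the organic anion importer gene Slco1a4 (chromosome 6, 141805440 to 141856199) 23.5 ± 10.6. Atp8b1, which encodes an aminophospholipid flippase of the canalicular membrane, was lowest with 4.54 ± 1.33. Reads of Slco1a4 and Slco1b2, which belong to families of close paralogs, and of the overlapping opposite-strand spans of Abcg5 and Abcg8 may have been assigned partly to the wrong gene, since no source used here states how reads were counted or whether strand was used.

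**Figure D1:**
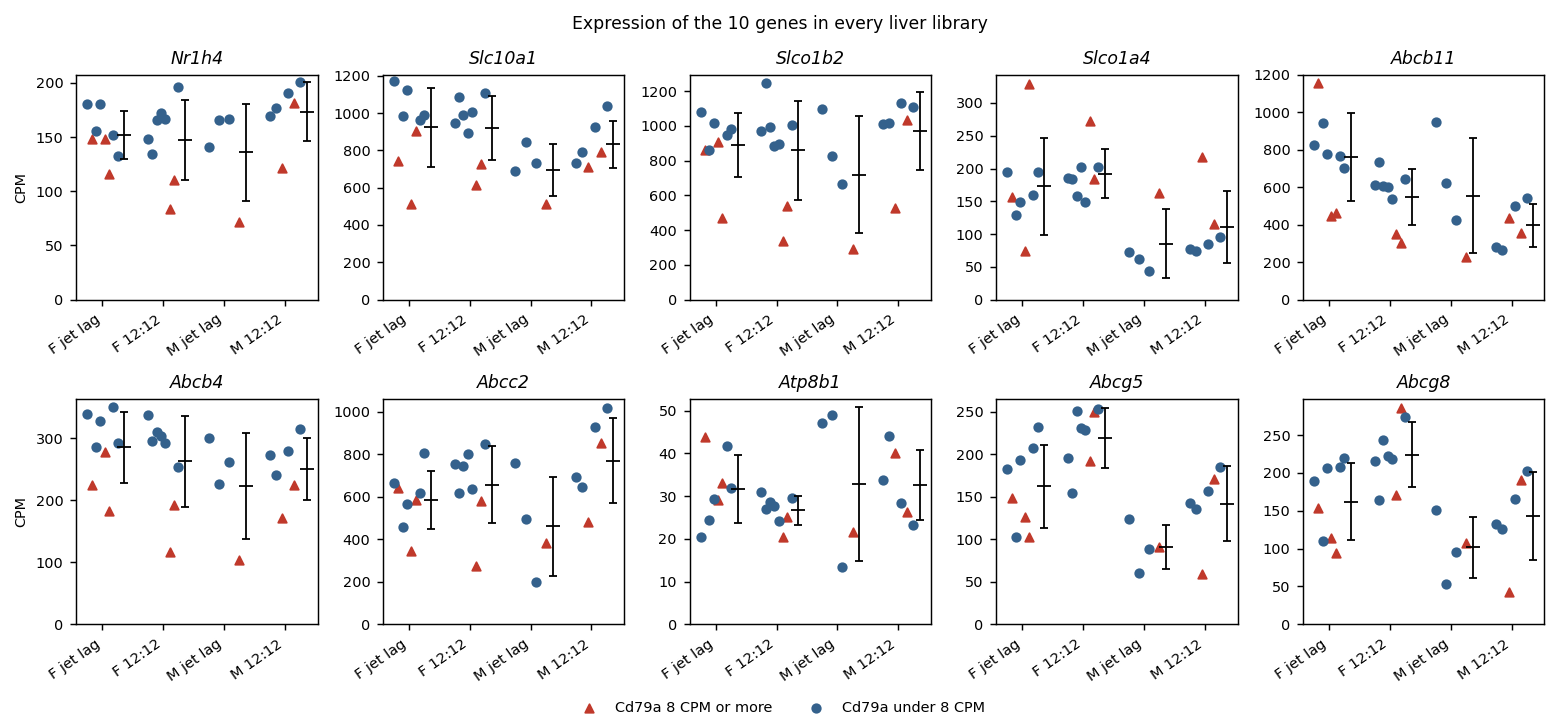
CPM of each gene (linear axis from 0) in every library, by sex and lighting. Red triangles are libraries with 8 CPM Cd79a or more and blue circles the rest, and the black bars give the mean and SD of each group. Slco1b2 and Abcb4 are lowest among the triangles, and Slco1a4 is higher in females than in males.

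Whether 8 weeks of jet lag lighting changed these genes was tested over both sexes with sex in the model. None of the 10 passed an adjusted p of 0.05, where 132 of 16892 genes (0.781%) did. At an unadjusted p under 0.05 there were 4, Abcb11, Abcc2, Abcg5 and Abcg8, beside 8.01% of all genes, and the DESeq2 test called 0 of the 10 as well. The median log2 fold change of jet lag over 12:12 lighting was -0.14 over the 10 genes and 0.02 over all genes tested. In bulk RNA of this kind, fewer cells of a type and less RNA per cell cannot be told apart. The summed B-lineage list lay between 9.67 and 481 CPM in jet lag livers and between 9.52 and 374 CPM in 12:12 livers, and none of its 10 genes passed. The neutrophil list lay between 0.962 and 365 CPM in jet lag livers and between 1.12 and 162 CPM in 12:12 livers. The part of these cells in the fold changes was not tested beyond the fits without the Cd79a-rich libraries and with log2 Cd79a as covariate.

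The sterol exporter genes had the smallest p of the 10. Abcg5 lay between 103 and 232 CPM in female jet lag livers, with a median of 166, and between 154 and 253 CPM, with a median of 230, in female 12:12 livers. In male jet lag livers Abcg5 had 123, 60.2, 88.2 and 90.5 CPM, and in male 12:12 livers it ranged from 59.4 to 185 CPM with a median of 149.8. The groups overlapped in both sexes, and 11 of 12 jet lag livers lay below the 12:12 median of their sex. Such counts were not taken over all genes, here or for the genes that follow, so they describe these genes only. The log2 fold change of Abcg5 was -0.53 (SE 0.16), with an adjusted p of 0.159 in edgeR. It was the single gene of the 10 that passed when a library was left out: without male 12:12 mouse 3, one of the Cd79a-rich livers, the change was -0.59 (SE 0.14, edgeR adjusted p = 0.0288), where 1.27% of all genes passed. Without all 8 Cd79a-rich libraries it was -0.50 (SE 0.15, edgeR adjusted p = 0.0885).

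Abcg8 ranged from 94.3 to 219.7 CPM (median 172) in female jet lag livers and from 164 to 285 CPM (median 220.0) in female 12:12 livers. In males it had 151, 53.7, 95.1 and 107 CPM under jet lag and 42.0 to 202 CPM (median 149) under 12:12 lighting. All 8 female and 3 of 4 male jet lag livers were below the 12:12 median of their sex, and the groups overlapped. The log2 fold change was -0.50 (SE 0.19, edgeR adjusted p = 0.392).

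The conjugate exporter gene Abcc2 was spread widely. It ranged from 346 to 807 CPM (median 601) in female jet lag livers and from 274 to 848 CPM (median 692) in female 12:12 livers. Its levels in male livers were 762, 498, 199.6 and 384 CPM under jet lag and 481 to 1019 CPM (median 775) under 12:12 lighting. In 11 of 12 jet lag livers Abcc2 was below the 12:12 median of the sex, with a log2 fold change of -0.42 (SE 0.19, edgeR adjusted p = 0.578).

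Abcb11, the bile salt pump gene, had a fold change of the other sign. Female jet lag livers ranged from 444 to 1155 CPM (median 771) and female 12:12 livers from 300.1 to 734 CPM (median 603). Male jet lag livers had 949.9, 619.5, 422 and 229 CPM, and male 12:12 livers 264 to 544 CPM (median 396). Of the 12 jet lag livers, 9 were above the 12:12 median of their sex, with a log2 fold change of 0.45 (SE 0.20, edgeR adjusted p = 0.537) and of 0.46 (SE 0.14, edgeR adjusted p = 0.0885) without the Cd79a-rich libraries.

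The receptor gene Nr1h4 had log2 fold change -0.12 (SE 0.16, edgeR adjusted p = 0.999). Female jet lag livers had 152 ± 21.9 CPM (SD, median 150) and female 12:12 livers 147 ± 36.5 CPM (median 157, n = 8 each). Male livers had 136 ± 44.7 CPM under jet lag (n = 4) and 174 ± 27.6 CPM under 12:12 lighting (n = 6). Although its adjusted p was this high, 10 of 12 jet lag livers were below the 12:12 median of their sex. The importer genes Slc10a1, Slco1b2 and Slco1a4 had log2 changes of -0.11 (SE 0.14), -0.16 (SE 0.21) and -0.26 (SE 0.19). Those of the phospholipid transporter genes Abcb4 and Atp8b1 were -0.01 (SE 0.18) and 0.13 (SE 0.16). Adjusted p-values of these 6 genes were 0.913 or higher in edgeR. In the authors' deposited table, whose fold changes are 12:12 lighting over jet lag, Abcg5 had 0.46 (adjusted p = 0.386) and Abcb11 -0.48 (adjusted p = 0.423).

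Within females none of the 10 genes passed, where 0 of 16892 genes (0%) did in edgeR, 772 genes (4.57%) had an unadjusted p under 0.05 and DESeq2 called 55 genes. Within males none of the 10 passed beside 2 genes (0.0118%) in all, and the largest change of the 10 was that of Abcc2, -0.77 (SE 0.31, edgeR adjusted p = 0.443). The difference between the sexes in the jet lag response was itself tested, and none of the 10 genes, and 0 of all genes (0%), passed in edgeR. DESeq2 called 0 genes for that difference and 902 genes (5.34%) had an unadjusted edgeR p under 0.05. For Abcc2 the female change minus the male change was 0.57 (SE 0.39), the largest of the 10.

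**Figure D2:**
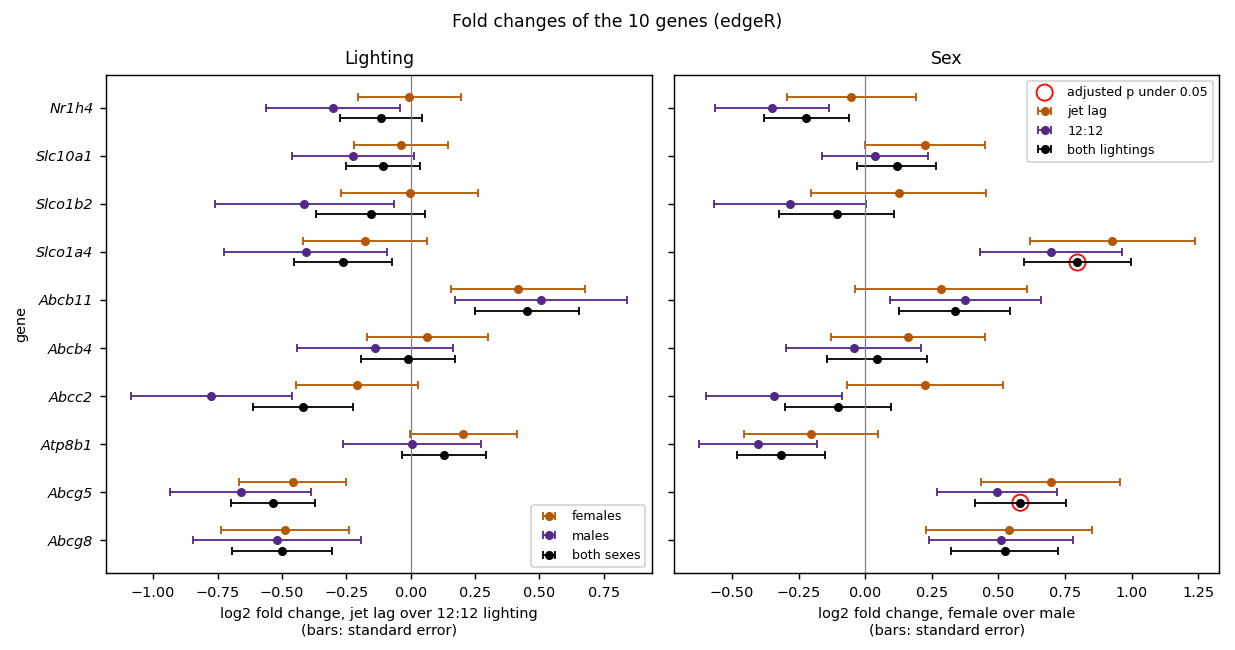
Log2 fold change with standard error of each gene, for jet lag over 12:12 lighting (left) and female over male (right), within each stratum and over both (black). Red rings mark edgeR adjusted p under 0.05, found for Slco1a4 and Abcg5 between the sexes and for no gene between the lightings.

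Female livers were compared with male livers, since several liver transporters are known to differ by sex in mice. Over both lightings 2 of the 10 genes, Slco1a4 and Abcg5, were higher in females, beside 789 of 16892 genes (4.67%) that were higher. None was lower, beside 753 genes (4.46%).

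Slco1a4 ranged from 73.5 to 329 CPM (median 184) in female livers and from 43.1 to 218 CPM (median 80.9) in male livers. All but 1 of the 16 female livers were above the male median, and 1 of the 10 male livers was above the female median. The log2 fold change was 0.80 (SE 0.20, edgeR adjusted p = 0.0105). With a replicate block it was 0.87 and did not pass (edgeR adjusted p = 0.0827). Under that block 324 genes passed in all, against 1542 without it, and whether the replicate numbers pair the mice is not known. Without the Cd79a-rich libraries the log2 fold change of Slco1a4 was 1.14 (SE 0.11, edgeR adjusted p = 6.05e-08). In that fit 3188 of 16431 genes (19.4%) passed. Female livers then had 129 to 202 CPM and male livers 43.1 to 95.1 CPM, which did not overlap. How many of all genes separated the sexes in this way was not counted.

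Abcg5 ranged from 103 to 253 CPM (median 195) in female livers and from 59.4 to 185 CPM (median 129.6) in male livers. No male liver reached the female median. The log2 fold change was 0.58 (SE 0.17, edgeR adjusted p = 0.0285). The call was lost without male jet lag mouse 6 (0.54, edgeR adjusted p = 0.0614) and with counts scaled to the hepatocyte list (0.52, edgeR adjusted p = 0.138). With a replicate block it was lost too (0.58, edgeR adjusted p = 0.228), as were most calls over all genes, 324 against 1542. Abcg8 ranged from 94.3 to 285 CPM in female livers and from 42.0 to 202 CPM in male livers, with a log2 fold change of 0.52 (SE 0.20, edgeR adjusted p = 0.108). Without the Cd79a-rich libraries Abcg8 passed, at 0.56 (SE 0.16, edgeR adjusted p = 0.0208), in a fit where 3188 of 16431 genes (19.4%) did.

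The other 7 genes did not pass. Abcb11 had a log2 fold change of female over male of 0.34 (SE 0.21, edgeR adjusted p = 0.365) and Atp8b1 of -0.32 (SE 0.17, edgeR adjusted p = 0.261), and the remaining 5 lay between -0.22 and 0.12. Other cell types differed between the sexes too. The summed T and NK cell list lay between 1.40 and 3.68 CPM in female livers and between 0.704 and 1.85 CPM in male livers, and 3 of its 4 genes were higher in females. The cholangiocyte list lay between 18.9 and 64.9 CPM in female livers and between 19.0 and 32.8 CPM in male livers, with 1 of 6 genes higher. No gene of these lists was at 0 in all libraries, and their part in the sex differences was not tested.

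Within each lighting none of the 10 genes passed between the sexes, beside 324 genes (1.92%) under jet lag and 622 genes (3.68%) under 12:12 lighting. For Slco1a4 the log2 change was 0.93 (SE 0.31, edgeR adjusted p = 0.125) under jet lag and 0.70 (SE 0.27, edgeR adjusted p = 0.159) under 12:12 lighting. Without the Cd79a-rich libraries 1902 of 16431 genes (11.6%) passed between the sexes under jet lag and 1357 (8.26%) under 12:12 lighting. Slco1a4 then passed under both, with 1.32 (SE 0.16, edgeR adjusted p = 6.74e-06) under jet lag and 1.01 (SE 0.14, edgeR adjusted p = 3.06e-05) under 12:12 lighting. Abcg5 also passed there under jet lag, with 0.88 (SE 0.22, edgeR adjusted p = 0.0136), and Abcg8 with 0.77 (SE 0.25, edgeR adjusted p = 0.049). With 1 library left out, Slco1a4 passed in edgeR under jet lag without female jet lag mouse 5 (adjusted p = 0.0463, 2.83% of all genes passing) and without male jet lag mouse 8 (adjusted p = 0.0139, 5.66% of all genes passing). Under 12:12 lighting it passed without male 12:12 mouse 3 (edgeR adjusted p = 0.0286, 4.45% of all genes passing). With log2 Cd79a as covariate it passed under jet lag, at 0.99 (SE 0.27, edgeR adjusted p = 0.0295), where 5.88% of all genes did.

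The surrounding pathway was read from 6 further lists with 50 genes, of which 49 were tested. Under jet lag none passed in 5 of these lists, and the gene with the smallest p of each is given. Among other canalicular genes that was Abcb1a, a xenobiotic exporter gene, at -0.75 (SE 0.20, edgeR adjusted p = 0.0855), and among basolateral efflux genes Abcc3, an exporter of conjugates into the blood, at -0.21 (SE 0.13). Among other uptake genes it was the organic anion importer gene Slc22a7 at 0.55 (SE 0.34), among regulators the fatty acid receptor gene Ppara at -0.64 (SE 0.24), and among bile acid synthesis genes Hsd3b7 at 0.57 (SE 0.24, edgeR adjusted p = 0.458). Of the 49 genes, 0 passed in females alone, 0 in males alone and 0 in the difference between the sexes.

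Between the sexes 8 of the 49 genes passed, 4 higher and 4 lower in females, where 9.13% of all genes passed, 4.67% higher and 4.46% lower. Higher were Abcb1a by 1.48 (SE 0.22, edgeR adjusted p = 3.43e-05) and Slc47a1, an organic cation exporter gene, by 0.44 (SE 0.11), both of the other canalicular list. Also higher were the basolateral exporter gene Abcc4 by 1.01 (SE 0.28, edgeR adjusted p = 0.0242) and Klb, which encodes the FGF co-receptor that relays the intestinal signal against bile acid synthesis, by 0.38 (SE 0.11). Lower were the uptake genes Slco1a1 by a log2 fold change of -3.02 (SE 0.60, edgeR adjusted p = 0.00159) and Slc10a2, the bile acid importer gene best known from the ileum, by -1.42 (SE 0.21). The canalicular exporter gene Abcg2 (-1.34, SE 0.16) and the oxysterol hydroxylase gene Cyp7b1 of bile acid synthesis (-3.19, SE 0.35, edgeR adjusted p = 8.46e-07) were lower too. Slco1a1, a relative of Slco1a4, lay between 1.77 and 137 CPM in female livers and between 22.7 and 572 CPM in male livers. The apical assembly list had no gene past the threshold between the sexes, and the smallest p there was that of the membrane scaffold gene Slc9a3r1 (-0.33, SE 0.12).

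The 8 Cd79a-rich libraries were then set beside the other 18, as a description without a test, since the division was measured from the libraries. The classes were mixed over the groups, with 3 of 8 female jet lag, 2 of 8 female 12:12, 1 of 4 male jet lag and 2 of 6 male 12:12 livers being Cd79a-rich. The summed B-lineage list ran from 56.2 to 481 CPM in these libraries and from 9.52 to 21.1 CPM in the rest. Kupffer cell genes summed to 263 to 1078 CPM in them and 162 to 346 CPM in the rest, and neutrophil genes to 5.39 to 365 CPM in them and 0.962 to 5.76 CPM in the rest. The stellate cell list had a median sum of 349 CPM in them and 275 CPM in the rest, and in males it did not overlap, at 297 to 316 CPM in the Cd79a-rich livers and 140 to 239 CPM in the others. The endothelial list had a median sum of 253 CPM in them and 201 CPM in the rest, with overlap. No gene of these lists was at 0 in all libraries, and their part in the levels that follow was not tested. The hepatocyte list was not lower as a sum. It ran from 191446 to 292539 CPM (median 234762) in the Cd79a-rich libraries and from 161969 to 221599 CPM (median 203724) in the rest. Albumin alone made up most of this sum in every library, with 22.1% of all counts in male jet lag mouse 8, the library with the highest sum. The single genes of the list are not given here.

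Of the 10 genes, 9 had a lower median in the Cd79a-rich libraries, where 38.3% of all genes had. For 3 the median was at least 1.5-fold lower, where 5.08% of all genes reached that. The median log2 ratio of Cd79a-rich over other libraries was -0.46 for the 10 genes and 0.11 for all genes in CPM. After TMM scaling these medians were -0.60 and -0.03, and 7 of the 10 genes, against 8.22% of all genes, were at least 1.5-fold lower. Relative to the summed counts of the hepatocyte list (times 1e+06) they were -0.75 and -0.13, and 8 of the 10 genes, against 13.4% of all genes, were at least 1.5-fold lower. This last scale rests mostly on albumin counts.

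**Figure D3:**
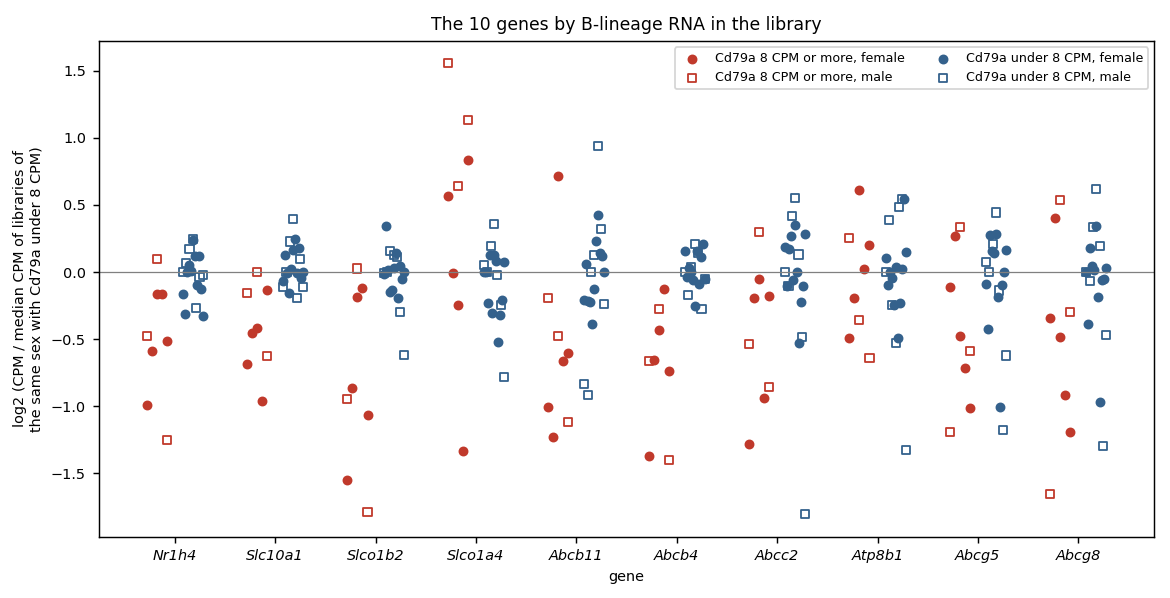
Log2 of each gene's CPM over the median of the libraries of the same sex with Cd79a under 8 CPM, for Cd79a-rich (red) and other (blue) libraries, 1 point per library, females filled and males open. Most red points lie below 0 for every gene except Slco1a4 and Atp8b1, whose red points spread to both sides.

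The importer gene Slco1b2 was furthest down. It ranged from 294 to 1034 CPM, with a median of 534, in the Cd79a-rich libraries and from 663 to 1249 CPM, with a median of 997, in the rest. In 5 of 8 Cd79a-rich libraries it was below all of the other 18, and its log2 ratio of medians, -0.90, stood at percentile 2.03 of all genes. Abcb4, the phosphatidylcholine floppase gene, had the cleanest separation, with 103 to 278 CPM (median 187) in the Cd79a-rich libraries and 225 to 350.3 CPM (median 294) in the rest. In 7 of the 8 it was below all of the rest. On that hepatocyte scale Abcb4 did not overlap, with 353 to 1201 in the Cd79a-rich libraries and 1213 to 1847 in the rest, where 0.0592% of all genes were lower without overlap. Abcb11 ranged from 229 to 1155 CPM (median 396) in the Cd79a-rich libraries and from 264 to 949.9 CPM (median 614) in the rest, and 7 of 8 were below the median of the rest.

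The remaining genes shifted less. The log2 ratio of medians in CPM was -0.55 for Abcg8, -0.49 for Nr1h4, -0.44 for Slc10a1, -0.41 for Abcg5, -0.36 for Abcc2 and -0.06 for Atp8b1. Slc10a1 was below the median of the rest in all 8 Cd79a-rich libraries, but within males alone its log2 ratio was -0.15.

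Slco1a4 was the gene of the 10 with a higher median in the Cd79a-rich libraries, 173 CPM against 149 CPM in the rest. In males it had 115, 162 and 218 CPM in the 3 Cd79a-rich livers and 43.1 to 95.1 CPM in the other 7, a log2 ratio of medians of 1.13. These male values did not overlap, but 15.2% of all genes were higher without overlap in the same males. In females the Cd79a-rich livers had 73.5, 156, 184, 273 and 329 CPM and the other 11 had 129 to 202 CPM, so they lay on both sides. Abcb4 was lower without overlap in the Cd79a-rich males, as were 1.65% of all genes. Set side by side after their values were seen, the count ratio of Slco1a4 to Slco1b2 was 0.112 to 0.552 in Cd79a-rich males and 0.065 to 0.0856 in the other males. In females this ratio was 0.0811 to 0.814 in the Cd79a-rich livers and 0.146 to 0.228 in the others, which overlapped.

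**Figure D4:**
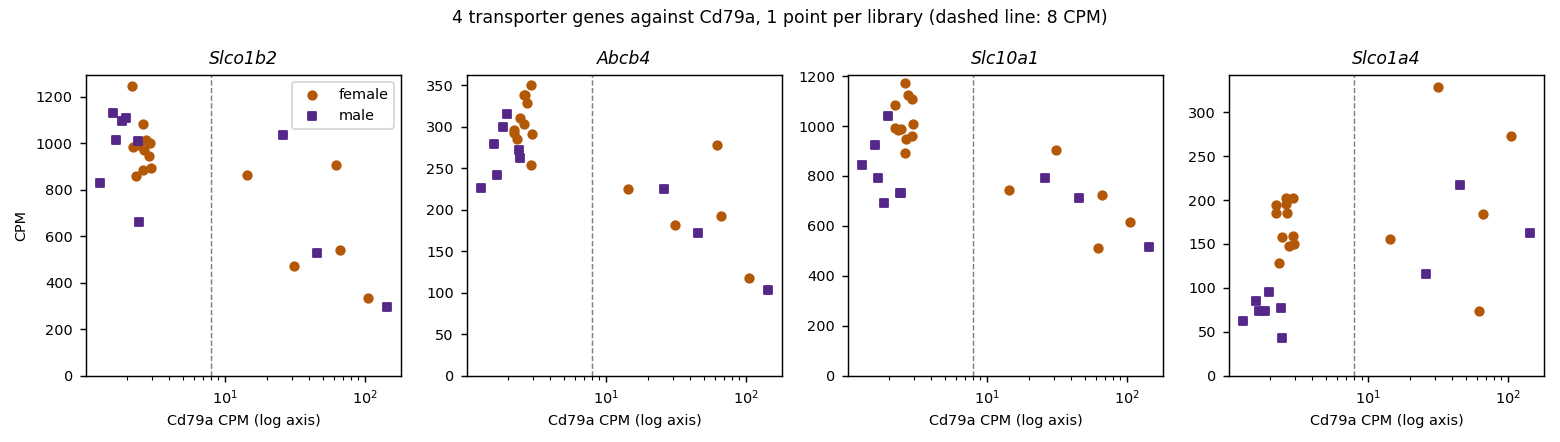
CPM of 4 transporter genes (linear axis from 0) against Cd79a CPM (log axis), 1 point per library, females as circles and males as squares, with a dashed line at 8 CPM. Slco1b2, Abcb4 and Slc10a1 are lower in most libraries right of the line, and male Slco1a4 is higher there.

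The Cd79a-rich livers were not alike. Female 12:12 mouse 6 (105 CPM Cd79a) had 7 of the 10 genes below every female library with Cd79a under 8 CPM, and female jet lag mouse 6 (31.4 CPM) had 6. Male 12:12 mouse 5 (26.2 CPM) had 1 below every other male library of that kind, and the median log2 ratio of its 10 genes was 0.06, against -0.84 in female 12:12 mouse 6. How many of all genes lay as low in each of these livers was not counted, so the counts compare the livers only. Female jet lag mouse 5 (62.7 CPM), which had the most neutrophil RNA, was the liver with the lowest female Slco1a4, 73.5 CPM. Low values were not confined to these livers. Male jet lag mouse 7 had 2.42 CPM Cd79a and yet the lowest Abcc2 (199.6 CPM), Slco1a4 (43.1 CPM) and Atp8b1 (13.4 CPM) of all libraries. Its TMM factor was also the lowest, 0.802. After TMM scaling the lowest Abcc2 was in a Cd79a-rich liver, 245 against 249 in the rest. Relative to the hepatocyte list the lowest Atp8b1 was in a Cd79a-rich liver too, 73.7 against 77.3 in the rest. The lowest Slco1a4 lay outside the Cd79a-rich livers on both scales.

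How the genes moved with each other was read in the 18 libraries with Cd79a under 8 CPM, as correlations of log2 CPM over 45 pairs. Abcg5 and Abcg8 were closest, with r = 0.98 and rho = 0.99, each with a permutation p of 1e-05 (n = 18), the smallest 100000 permutations can give, and 0.00045 after adjustment over the pairs. Without the 2 libraries farthest from the median r was 0.958, and after subtracting the mean of each sex and lighting group it was 0.956. In the 8 Cd79a-rich libraries r was 0.969 (exact permutation p = 0.000198, adjusted 0.00446). The count ratio of Abcg5 to Abcg8 stayed between 0.819 and 1.41 over all 26 libraries, with a median of 0.967. Their annotated spans overlap on opposite strands, so a share of reads given to the wrong gene would move them together, and this share was not measured.

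**Figure D5:**
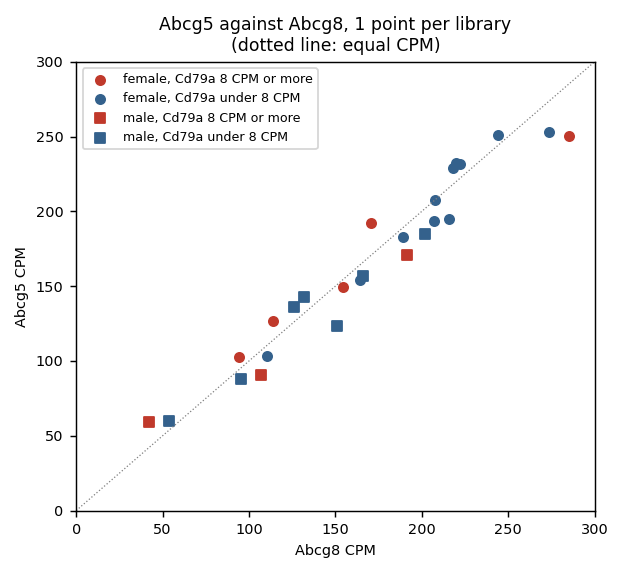
Abcg5 CPM against Abcg8 CPM, 1 point per library, females as circles and males as squares, Cd79a-rich libraries in red and the others in blue, with the line of equal CPM dotted. The points follow the line from 59.4 to 253 CPM of Abcg5.

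Besides Abcg5 and Abcg8, 5 of the 45 pairs passed an adjusted p of 0.05 for r in these 18 libraries, all positive. In 3 of them Slco1a4 was a partner, with Abcg5, Abcg8 and Slc10a1. No pooled value is given for these 3, since Slco1a4 separated the sexes without overlap there, and within the 11 females and within the 7 males none of the 3 passed. Slco1b2 with Abcc2 had r = 0.76 (permutation p adjusted 0.0117, n = 18) and rho = 0.46 (permutation p adjusted 0.224), with r = 0.67 without the 2 libraries farthest from the median. Abcb4 with Abcg8 had r = 0.65 (permutation p adjusted 0.0257, n = 18) and rho = 0.45 (permutation p adjusted 0.235), with r = 0.36 without the 2 farthest libraries, so that this relation rests on those libraries.

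Abcg5 and Abcg8 remained close within each sex, with r = 0.98 in females (n = 11, permutation p adjusted 0.00045) and r = 0.97 in males (n = 7, exact permutation p adjusted 0.0238). Of the 45 pairs 5 passed for r within females, 4 positive and 1 negative, with a median r of 0.06 over all pairs, and 4 passed within males, all positive, with a median r of 0.41. Within each sex the libraries of both lightings were pooled, and the permutations ran across lightings. The negative pair was Abcb11 with Abcg5 in females, with r = -0.76 and rho = -0.68 (n = 11, permutation p adjusted 0.0388 and 0.158). Without the 2 farthest libraries 0 negative pairs passed for r within females. Besides Abcg5 with Abcg8, the pair that passed in both sexes was that of the importer gene Slco1a4 and the conjugate exporter gene Abcc2. In females r was 0.82 and rho 0.83 (n = 11, permutation p adjusted 0.0218 and 0.0394), but r was 0.58 without the 2 farthest libraries and no longer passed (exact permutation p adjusted 0.459). In males r was 0.99 and rho 0.89 (n = 7, exact permutation p adjusted 0.0179 and 0.0791), with male jet lag mouse 7 lowest for both genes. That mouse also had the lowest TMM factor, 0.802. Slco1a4 was 43.1 to 73.1 CPM in the 3 jet lag males and 74.1 to 95.1 CPM in the 4 males under normal lighting. Abcc2 was 199.6 to 762 CPM and 646 to 1019 CPM in these groups, which overlapped. The part of lighting, of library scaling and of mouse 7 in the male r was not tested.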

How the data were processed

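Liver mRNA of 26 mice was sequenced from stranded libraries, per the labels. The authors deposited a table of expected counts per gene name and library, without normalization. In it 45.8% of cells held 0.015, which was set to 0, and 1.44% were not whole (tolerance 1e-06) and were rounded. The submitters' processing notes list STAR, DESeq2 and mm10 with no version. Which tool counted reads, with which annotation and strand option, was not given in the sources used here. A DESeq2 result deposited by the authors gives each gene's log2 fold change (12:12 lighting over jet lag) and adjusted p-value, and is quoted only where named. Their normalized table was not used.

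Counts were fitted with edgeR 4.0.16 (R 4.3.3) over all 26 libraries, with filterByExpr by group (count minimum 10, 16892 genes kept), TMM scaling and robust quasi-likelihood F tests. P-values were adjusted over all genes by Benjamini and Hochberg, with a threshold of 0.05. Comparisons over both sexes or both lightings used an additive model of sex and lighting, and the others used 4 group means, which share 1 estimate of the spread. The standard error of a fold change is its size over the square root of F. CPM is the count over the column sum times 1e+06, and log2 CPM for correlations used a pseudocount of 0.1 CPM. Exon lengths and gene spans came from GENCODE M21 (GRCm38), and promoter windows from RefSeq (GRCm38.p6). DESeq2 1.42.0 was an alternative test. The scripts were tested on simulated data.

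The 10 genes and the 20 lists (121 of 122 entries found, Adgre1 not used here) were chosen with earlier results of these data known. All 10 genes were named in each comparison. From each of the 6 further pathway lists up to 3 genes with the smallest p past the threshold were named, or the gene with the smallest p where none passed. A result of 1 list under jet lag is not reported here. The marker lists of cell types were summed as CPM. Alternatives were DESeq2, its size factors, scaling to the hepatocyte list, no filter, only the 2 groups compared, a replicate block, log2 Cd79a as covariate, no Cd79a-rich libraries and each library left out. Correlations after subtraction of group means or within a sex, and the Cd79a division within a sex, were added after the data had been seen. The closest libraries of a group differed by a chi-square per degree of freedom of 36.5, so none were counted together.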

Additional observations from a re-analysis of the deposited data

Results flagged for a closer look

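In 5 of 40 sets of values (10 genes in 4 groups) the highest or lowest library stood apart from the nearest other library by more than the 95% limit of Dixon's gap test. Chance alone gives about 1 in 20 sets where sets are independent, but these sets share their libraries across the 10 genes. The count therefore cannot be judged against that share. All 5 values came from Cd79a-rich libraries, with female 12:12 mouse 6 and male 12:12 mouse 3 recurring among them. Slco1b2 was low in female jet lag mouse 6, with 471 CPM against 859.7 CPM in the nearest female jet lag liver, and in male 12:12 mouse 3, with 527 CPM against 1009 CPM in the nearest. Slco1a4 was high in female 12:12 mouse 6, with 273 CPM against 202 CPM in the nearest, and in male 12:12 mouse 3, with 218 CPM against 115 CPM in the nearest. Abcc2 was low in female 12:12 mouse 6, with 274 CPM against 579.8 CPM in the nearest. Why these libraries stood apart was not tested.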

How the results depend on the processing

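Single-gene values under other settings numbered 590, without the fits that left out 1 library. Of these, 573 kept their side of the threshold or, in the Cd79a division, their size. Of the rest, 7 newly passed, 3 no longer passed and 7 moved in size. The sign changed in 34, all of them among the 573 and none past the threshold. With 1 library left out signs changed as well, none past the threshold, most often for Nr1h4 under jet lag in females (16 of 26 fits). Between the sexes over both lightings, where 2 of the 10 genes passed, scaling to the hepatocyte list left 1, Slco1a4, with Abcg5 at 0.52 (edgeR adjusted p = 0.138). Under jet lag, where 0 passed between the sexes, 3 did without the Cd79a-rich libraries (11.6% of all genes) and 1 with log2 Cd79a as covariate (5.88% of all genes). Under 12:12 lighting 1 did without those libraries (8.26% of all genes). With each library left out, the 10 genes gave 0 to 1 calls for jet lag over both sexes, 1 to 2 between the sexes, 0 to 1 between them under jet lag and 0 to 1 under 12:12 lighting. Pairs of genes past the threshold numbered 16 over all 26 libraries, against 6 in the 18, and 1 within females without the 2 farthest libraries. The causes were not tested.

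Over all genes, the 132 calls for jet lag became 274 with DESeq2, 87 with hepatocyte scaling, 381 without the Cd79a-rich libraries, 280 with the covariate, and between 70 (without female jet lag mouse 3) and 244 (without male jet lag mouse 8) with a library left out. In females 0 became 55 with DESeq2, 2 with hepatocyte scaling, 13 without those libraries, 28 with the covariate and 14 with only the 2 groups. In males 2 became 94, 219 and 61 with DESeq2, without those libraries and with the covariate, 0 with DESeq2 size factors or only the 2 groups, and 106 without male jet lag mouse 8. Between the sexes 1542 became 3188 without those libraries and 2532 with the covariate. Under jet lag 324 became 650 with DESeq2, 1902 without those libraries, 993 with the covariate, 145 with only the 2 groups, 967 without male jet lag mouse 8 and 194 without male jet lag mouse 6, and under 12:12 lighting 622 became 977, 403, 1357 and 1283 with DESeq2, hepatocyte scaling, without those libraries and with the covariate, and 346 and 352 without male 12:12 mouse 1 and mouse 4. A fit on only the 2 groups does not apply to comparisons over all 4.

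Deviations of same-numbered libraries correlated over 0.1 in 5 of 8 female, 1 of 2 male, 1 of 4 jet lag and 3 of 6 12:12 pairs. Differently numbered pairs were not compared, so these values cannot show whether the replicate numbers pair the mice. With a replicate block 0 of the 10 genes passed between the sexes, with Slco1a4 at 0.87 (edgeR adjusted p = 0.0827) and Abcg5 at 0.58 (edgeR adjusted p = 0.228). Calls over all genes under the block were 19 in females, 4 in males, 324 between the sexes, 18 under jet lag and 139 under 12:12 lighting.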

Other observations

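The further pathway lists were also set beside Cd79a, as summed CPM and without a test. The 9 genes of bile acid synthesis summed to 1227 to 2201 CPM (median 1667) in the Cd79a-rich libraries and 1967 to 3004 CPM (median 2271) in the rest. The 8 other uptake genes summed to 1079.7 to 2294 CPM (median 1677) in the Cd79a-rich libraries and 2069.5 to 2496 CPM (median 2295) in the rest. The 7 other canalicular genes had a median sum of 320.4 CPM in the Cd79a-rich libraries and 461 CPM in the rest. The 8 apical assembly genes summed to 315 to 438 CPM in the Cd79a-rich libraries and 326 to 452 CPM in the rest, which overlapped. The 12 regulator genes summed to 883 to 1324 CPM (median 1138) in the Cd79a-rich libraries and 844 to 1453 CPM (median 1243) in the rest. The 6 basolateral efflux genes summed to 622 to 1191 CPM (median 897) in the Cd79a-rich libraries and 746 to 1395 CPM (median 1131) in the rest, and both of these lists overlapped. Basolateral Slc51a was at 0 in most libraries and reached 0.0202 CPM at most.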
